A study of Mus musculus with 17 samples.

Results

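The comparison set 3 libraries labelled Lin28b knockout, made from mouse fetal liver, against 3 libraries of wild-type adult bone marrow, and so took 6 of the 17 libraries of the series. It asked which genes of the fetal program stood at the adult level in the labelled knockout and which stayed at the fetal level. By their labels, all 6 libraries came from FACS-sorted common myeloid progenitors, and both groups are of strain C57BL/6J. Such progenitors give rise to the red cell and platelet branch and to the granulocyte and monocyte branch. The cell type is that of the labels, and genes of other cell types that were high in the labelled knockout are given below. The knockout group carries the genotype label Lin28b KO with no further allele given, and the adult group is labelled wild-type. The reference group, 3 libraries of wild-type C57BL/6J fetal liver progenitors, defined the fetal level. The treatment field of all 17 libraries names doxycycline exposure to induce Lin28b overexpression, also for these groups, in which no inducible allele is labelled. The labels give no ages and do not say whether a group's libraries derive from different animals. P-values here therefore reflect only library-to-library spread, which may be technical. Tissue, stage and genotype all change between the labelled knockout and the adult marrow, and their parts in any difference cannot be told apart. Values after ± are SDs over the 3 libraries of a group for levels and standard errors for log2 differences.

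In fetal blood progenitors, LIN28B binds precursors of the let-7 microRNAs and keeps them from maturing. Mature let-7 rises when LIN28B falls around birth, and let-7 silences messages that carry matches to its seed, among them those of the chromatin protein HMGA2, the IGF2BP family of mRNA-binding proteins and LIN28B itself.

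The labelled genotype was checked first. Lin28b, on chromosome 10, measured 112, 88.9 and 111 CPM (counts scaled to the TMM library size) in labelled knockout libraries 3, 6 and 8. In adult marrow libraries 2, 5 and 6 it measured 0.745, 0.0586 and 0.274 CPM, and in wild-type fetal liver libraries 1, 4 and 5 it measured 89.3, 99.6 and 124 CPM. Labelled knockout libraries 3 and 8 thus lay within the range of wild-type fetal liver and library 6 just below it, all far above every adult library. Against wild-type fetal liver, the log2 difference was 0.00 ± 0.27 (edgeR adjusted p 1), with a 95% interval of -0.59 to 0.58. Against adult marrow, the log2 difference was 8.09 ± 0.52 (edgeR adjusted p 6.3e-10), which became 9.27 without adult library 2, since the adult value rests on 21 counts. A deleted exon would not show in counts summed over a transcript, so these libraries are called the labelled knockout throughout. Its paralog Lin28a, which also blocks let-7, measured 4.84, 1.7 and 1.32 CPM in the labelled knockout and 0.447, 0.117 and 0.603 CPM in adult marrow, with a log2 difference of 2.73 ± 1.04 (edgeR adjusted p 0.048). That call was lost when any of the labelled knockout libraries 3 and 6, the adult libraries or wild-type fetal library 1 was left out.

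The labelled knockout libraries stood apart from both wild types before any fetal gene was considered. Counts on transcripts were 19527870 to 22811722 in the labelled knockout, 15712282 to 19086842 in adult marrow and 17899593 to 21771484 in wild-type fetal liver. Reads aligned to several places made up 25.6% to 28.9% of all aligned reads in the labelled knockout against 13.1% to 14.01% in adult marrow. Erythroid regulator and membrane genes summed to 46780 to 53640 CPM in the labelled knockout, 1855 to 2277 CPM in adult marrow and 1214 to 1592 CPM in wild-type fetal liver. Stem and multipotent progenitor genes went the other way, with 249.8 to 277 CPM in the labelled knockout, 1630 to 1673 CPM in adult marrow and 1845 to 1898 CPM in wild-type fetal liver. The fetal gene Hmga2 is included in these sums. Kit, a defining receptor of myeloid progenitors with several transcripts, had 0 counts in every library and could not be read. Cd34, a surface marker of these progenitors, measured 0.684, 0.763 and 1.62 CPM in the labelled knockout and 7.0, 10.1 and 6.85 CPM in adult marrow. Cd34 also has several transcripts, so reads set aside as ambiguous may lower its level. In such bulk samples, fewer cells of a type and less RNA per cell cannot be told apart.

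Across the 13558 genes tested, edgeR called 6476 (47.8%) between the labelled knockout and adult marrow at an adjusted p under 0.05, of which 3198 (23.6%) were higher and 3278 (24.2%) lower in the labelled knockout. The median log2 difference over all genes was -0.02. Against wild-type fetal liver, 5941 genes (43.8%) were called. For 8234 genes (60.7%) the libraries of the labelled knockout and adult marrow did not overlap. Between the wild types 3677 genes (27.1%) were called, and 43.9% had a 95% interval within 2-fold, with 398 genes (2.94%) at least 2-fold higher in fetal liver, called fetal-high here, and 838 genes (6.18%) at least 2-fold lower, called adult-high. Both comparisons use the same adult libraries, so their values are set side by side and not correlated. At the edge of the 2-fold limit, Eid2 was just inside the fetal-high set at a log2 difference of 1.002 and Ets2 just outside it at 0.998.

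A fetal-high gene was placed at the adult level when the 95% interval of its difference from adult marrow lay within 2-fold. It was placed at the fetal level when the interval of its difference from wild-type fetal liver did. A gene with both intervals within 2-fold was placed between, whatever its calls. Of the others, genes called lower than adult marrow were placed past the adult level, genes called higher than wild-type fetal liver past the fetal level, and genes called apart from both in between. A gene can thus be called and still be placed at a level. Of the 398 fetal-high genes, 37 stood at the adult level, 33 at the fetal level and 32 between. A further 22 lay past the adult level, 54 lay past the fetal level, and 220 (55.3%) had intervals too wide to place, with a median of 4.68 CPM in wild-type fetal liver. Over all genes tested, 31.9% had an interval within 2-fold of adult marrow and 34% within 2-fold of wild-type fetal liver. Among the 127 fetal-high genes at 20 CPM or more in wild-type fetal liver the classes held 26, 25, 21, 16 and 15 genes in that order, with 24 not placed. Counted by calls alone, 236 fetal-high genes were higher in the labelled knockout than in adult marrow, 27 were lower, and 135 were not called, of which 94 were lower than in wild-type fetal liver. With only the 9 libraries of the 3 groups fitted, 550 genes were fetal-high, with 52 at the adult level, 58 at the fetal level, 63 between and 120 past the fetal level. Without adult library 2 the adult-level class fell to 23 genes and the class past it to 14, without wild-type fetal library 1 the class between fell to 21, and without wild-type fetal library 5 the class past the adult level fell to 13. Only 19 of the 37 adult-level genes kept that class without adult library 2, 20 without adult library 5 and 21 without adult library 6.

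**Figure D1:**
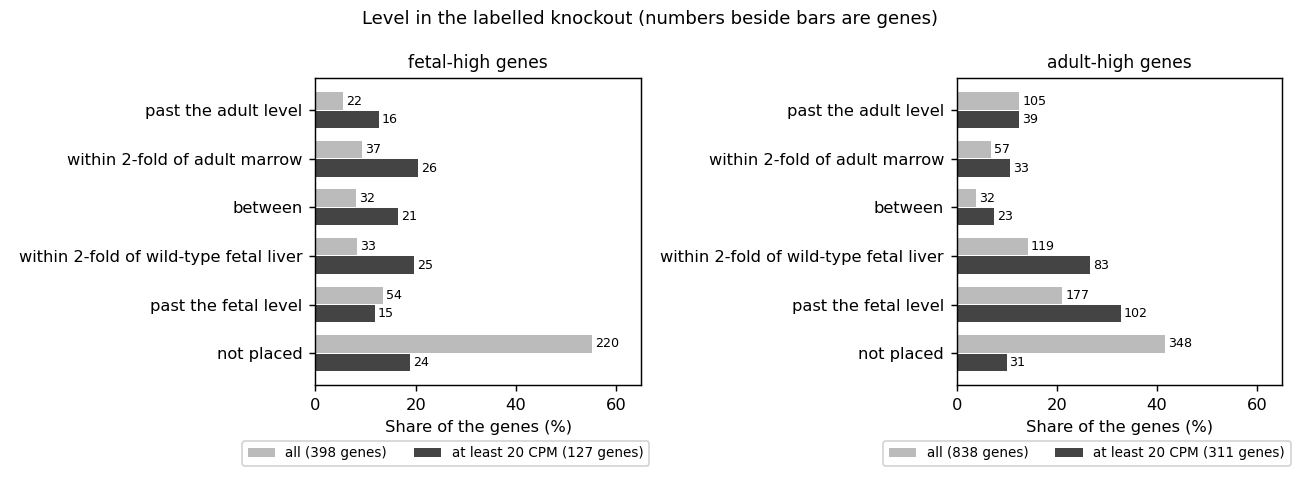
Share of fetal-high genes (left) and adult-high genes (right) in each class by their level in the labelled knockout, for all genes of the set and for those at 20 CPM or more in the higher wild type; numbers beside the bars are genes. Of the better expressed fetal-high genes, 26 stood at the adult level and 25 at the fetal level.

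The genes closest to LIN28B split over these classes. Hmga2 stood at the adult level. It measured 19.6, 23.6 and 24.7 CPM in the labelled knockout, 31.9, 28.5 and 35.4 CPM in adult marrow and 536, 520.1 and 542 CPM in wild-type fetal liver. All 3 labelled knockout libraries lay below all 3 adult libraries and far below the fetal ones. Against wild-type fetal liver, the log2 difference was -4.56 ± 0.16 (edgeR adjusted p 3.5e-11), while against adult marrow the log2 difference was -0.50 ± 0.16 (edgeR adjusted p 0.021). The latter call was lost without labelled knockout library 3 (-0.40, edgeR adjusted p 0.088), adult library 2 (-0.43, edgeR adjusted p 0.088) or adult library 6 (-0.34, edgeR adjusted p 0.15). The place within 2-fold of adult marrow held in 15 of 15 alternative fits. All of these fits kept the 2-fold margin, so they do not show the place under a narrower one. Hmga2 is also on the list of stem and multipotent progenitor genes, whose summed level in the labelled knockout was far below both wild types. That sum includes Hmga2 itself, whose 520.1 to 542 CPM were part of 1845 to 1898 CPM in wild-type fetal liver. The part of the other list members in the Hmga2 level was not tested.

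The 3 Igf2bp genes lay between the wild types, each called apart from both. Igf2bp1 measured 71.7, 83.6 and 84.3 CPM in the labelled knockout, 0.844, 0.234 and 0.329 CPM in adult marrow and 218, 184 and 218 CPM in wild-type fetal liver. Its labelled knockout libraries overlapped neither wild type and sat nearer the fetal one on the log2 scale, with a log2 difference of 7.35 ± 0.60 (edgeR adjusted p 8.8e-09) against adult marrow (8.18 without adult library 2) and -1.37 against fetal liver. With DESeq2 in place of edgeR it could not be placed. Igf2bp3 showed 121, 119 and 110.3 CPM in the labelled knockout, 4.22, 3.92 and 3.72 CPM in adult marrow and 282, 273 and 287 CPM in fetal liver, again without overlap, with a log2 difference of 4.88 ± 0.20 (edgeR adjusted p 6.9e-11) against adult marrow and a log2 difference of -1.27 ± 0.17 (edgeR adjusted p 2.1e-05) against fetal liver. Igf2bp2 sat nearer the adult level on that scale. Its values were 14.3, 16.6 and 18.9 CPM in the labelled knockout, 8.34, 5.68 and 5.7 CPM in adult marrow and 229, 225 and 254 CPM in wild-type fetal liver, with a log2 difference of 1.33 ± 0.21 (edgeR adjusted p 7.8e-05) and a log2 difference of -3.83 ± 0.19 (edgeR adjusted p 1.4e-09) against the 2 wild types. Of the 6 tested genes of this axis, 5 were called higher and 1 lower in the labelled knockout than in adult marrow. Their median log2 difference was 3.802, and the shares over all genes were 23.6% higher and 24.2% lower.

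**Figure D2:**
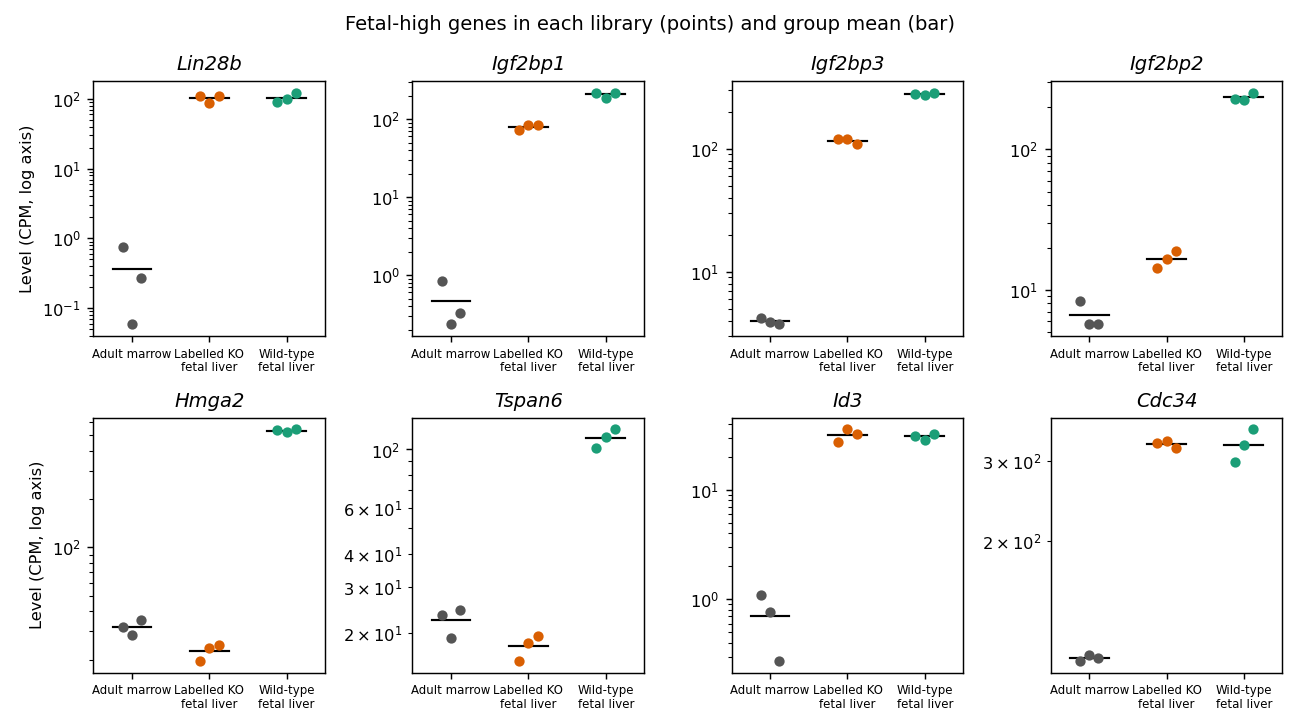
Level in CPM (log axis) of 8 fetal-high genes in each of 3 libraries of adult marrow, labelled knockout fetal liver and wild-type fetal liver; points are libraries and bars are group means. Lin28b, Id3 and Cdc34 stood at the wild-type fetal level in the labelled knockout, Hmga2 and Tspan6 near the adult level, and the 3 Igf2bp genes between.

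All 9 mature let-7 family members in the RefSeq table for GRCm38.p6 share the seed GAGGUAG, bases 2 to 8, so each can pair with the same sites. They are shown to fix what a seed match is, with the seed in capitals, for 4 members: let-7b on chr15:85707325-85707346 (plus strand), let-7c on chr16:77599672-77599693 (plus strand, 1 of its 2 copies), let-7g on chr9:106178846-106178867 (plus strand) and miR-98 on chrX:151913229-151913250 (plus strand).
let-7b: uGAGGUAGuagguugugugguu
let-7c: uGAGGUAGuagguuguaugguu
let-7g: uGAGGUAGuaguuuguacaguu
miR-98: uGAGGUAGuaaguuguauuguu

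A seed match reads CTACCTC on the sense strand of the 3' untranslated region. In the GENCODE vM21 transcripts, Lin28b, Hmga2 and Igf2bp1 each held 4 such matches, and Igf2bp2, Igf2bp3, Cdc34, Arid3b and E2f5 each held 1. A single site of each of 6 genes is printed with the match in capitals, since genes at the adult level, at the fetal level and between carry the same letters: Hmga2 at chr10:120364224-120364245, Lin28b at chr10:45381022-45381043, Igf2bp1 at chr11:95961778-95961799, Igf2bp2 at chr16:22059473-22059494 and Igf2bp3 at chr6:49086787-49086808, all on the minus strand, and Cdc34 at chr10:79688113-79688134 on the plus strand (GRCm38).
Hmga2: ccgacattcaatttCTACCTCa
Igf2bp2: cacacaaataaaagCTACCTCa
Igf2bp1: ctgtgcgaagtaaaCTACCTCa
Igf2bp3: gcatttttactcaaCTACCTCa
Lin28b: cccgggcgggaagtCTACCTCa
Cdc34: cctcaggcgacagaCTACCTCa

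Of 12244 tested genes with a 3' untranslated region, 1200 (9.80%) held a seed match, against 54 of 382 fetal-high genes (14.1%) and 79 of 739 adult-high genes (10.7%). Among fetal-high genes the share was 7 of 36 (19.4%) at the adult level, 6 of 32 (18.8%) at the fetal level and 7 of 32 (21.9%) between. It was 1 of 21 (4.76%) past the adult level and 6 of 54 (11.1%) past the fetal level. The shares at the adult level, at the fetal level and between lay from 18.8% to 21.9%, and these counts are a description of the letters only.

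The wider list of let-7 targets also split. Of 43 tested members, 23 were higher and 10 lower in the labelled knockout than in adult marrow, with a median log2 difference of 0.57, beside 23.6% of all genes called higher and 24.2% lower. Against wild-type fetal liver 13 were higher and 17 lower, with a median of 0.01, beside 20.8% and 23% of all genes. Of the 9 members in the fetal-high set, Hmga2, Ccnd1 and E2f5 stood at the adult level, Lin28b, Cdc34 and Arid3b at the fetal level, and Igf2bp1, Igf2bp2 and Igf2bp3 between. Cdc34, a ubiquitin-conjugating enzyme of the cell cycle, measured 329.5, 333 and 320.4 CPM in the labelled knockout and 299, 326 and 353 CPM in wild-type fetal liver, against 108, 112 and 110.3 CPM in adult marrow. The fetal groups overlapped each other and not the adult one, with a log2 difference of 1.57 ± 0.10 (edgeR adjusted p 7.7e-09) against adult marrow and a 95% interval of -0.21 to 0.23 against fetal liver. Arid3b, a DNA-binding protein, was not called against fetal liver although the groups did not overlap, at 51.2 ± 1.45 CPM in the labelled knockout, 41.5 ± 3.82 CPM in fetal liver and 16.2 ± 2.16 CPM in adult marrow. Ccnd1, which encodes cyclin D1, measured 14 ± 0.91 CPM in the labelled knockout, 11.7 ± 4.45 CPM in adult marrow and 36.5 ± 2.61 CPM in wild-type fetal liver. Unlike the other fetal-high members of the list, Ccnd1 had no seed match found in the transcripts used. Its place at the adult level was weak: it held in 5 of 15 alternative fits and was lost on leaving out any labelled knockout library, any wild-type fetal library, or adult library 2 or 5. E2f5, a transcription factor of the cell cycle, measured 16.2 ± 1.27, 13.6 ± 1.98 and 27.5 ± 0.842 CPM in the same order and held in 10 of 15, leaving the fetal-high set with RLE factors, with DESeq2, with genes of 1 transcript, and without adult library 2 or wild-type fetal library 5. Rrm2, a subunit of ribonucleotide reductase outside the fetal-high set, stood at 2285 ± 132 CPM against 345 ± 71.1 CPM in adult marrow.

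Beyond let-7 targets, the fetal-high genes at the adult level included surface, cytoskeletal and signalling genes. Tspan6, a tetraspanin, measured 15.6, 18.4 and 19.5 CPM in the labelled knockout, 23.3, 19.1 and 24.5 CPM in adult marrow and 101, 112 and 119 CPM in wild-type fetal liver. The labelled knockout overlapped adult marrow and stayed below every fetal library, with a log2 difference of -2.63 ± 0.19 (edgeR adjusted p 3.0e-08) against fetal liver and a 95% interval of -0.72 to 0.08 against adult marrow. Tubb6, a beta-tubulin, showed 23.7, 31 and 25.7 CPM against 21.7, 25.2 and 22.1 CPM in adult marrow and 67.9, 70.1 and 79 CPM in fetal liver. Its interval against adult marrow was -0.05 to 0.48. Camkk1, a kinase that activates calmodulin-dependent kinases, stood at 6.69 ± 1.12 CPM in the labelled knockout, 7.79 ± 1.1 CPM in adult marrow and 26.4 ± 1.2 CPM in fetal liver. Uaca, a coiled-coil protein, stood at 9.76 ± 0.351, 8.67 ± 2.25 and 36.2 ± 6.35 CPM in the same order, and Rras2, a small GTPase, at 11.3 ± 1.87, 9.84 ± 1.4 and 30.4 ± 5.08 CPM. Uaca could not be placed without adult library 6, nor Rras2 without labelled knockout library 6 or adult library 6. The genes at the adult level had a median log2 difference from adult marrow of 0.04 and from wild-type fetal liver of -1.40. Stem and multipotent progenitor genes fell in the same libraries: of 22 tested, 0 were higher and 16 lower in the labelled knockout than in adult marrow, and 1 was higher and 14 lower than in wild-type fetal liver. The shares of all genes were 23.6% and 24.2% against adult marrow, and 20.8% and 23% against wild-type fetal liver. The part of stem and progenitor genes in the level of these fetal-high genes was not tested.

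In the class past the adult level, genes that fetal liver expressed above adult marrow were lower in the labelled knockout than in either. Prr5, a component of the mTORC2 kinase complex, measured 16.7, 17.5 and 15 CPM in the labelled knockout, 34.4, 35.2 and 34.8 CPM in adult marrow and 93.7, 93.9 and 81.9 CPM in wild-type fetal liver. The 3 groups did not overlap, with a log2 difference of -1.09 ± 0.17 (edgeR adjusted p 7.3e-05) against adult marrow. Klk8, a secreted serine protease, fell further, to 10.5 ± 1.07 CPM against 33.3 ± 10.4 CPM in adult marrow and 83.8 ± 12.6 CPM in fetal liver (log2 difference -1.66 ± 0.23, edgeR adjusted p 2.6e-05 against adult marrow). Ttpa, the alpha-tocopherol transfer protein, stood at 5.2 ± 1.15, 13.4 ± 4.26 and 43 ± 2.82 CPM in that order (log2 difference -1.37 ± 0.23, edgeR adjusted p 1.5e-04). Shisa8, a membrane protein gene, fell from 14.5, 18.6 and 21.1 CPM in adult marrow to 2.79, 3.05 and 1.52 CPM, with a log2 difference of -2.88 ± 0.27 (edgeR adjusted p 4.7e-07). Jag2, a Notch ligand, measured 1.18 ± 0.748 CPM against 7.44 ± 1.18 CPM in adult marrow and 21.3 ± 3.29 CPM in fetal liver, -2.66 on the log2 scale and -3.25 without labelled knockout library 6. Ptk7, a catalytically inactive receptor kinase of planar cell polarity, stood at 20.3 ± 3.52, 35.5 ± 2.06 and 131 ± 9.3 CPM (log2 difference -0.81 ± 0.16, edgeR adjusted p 7.7e-04), and was placed at the adult level when only the 9 libraries of the 3 groups were fitted.

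Fetal-high genes that stayed at the fetal level included regulators, nucleolar and chaperone genes. Id3, an inhibitor of basic helix-loop-helix factors, measured 27.2, 35.7 and 32.1 CPM in the labelled knockout and 31, 28.6 and 32.6 CPM in wild-type fetal liver, against 1.09, 0.761 and 0.274 CPM in adult marrow. Both fetal groups lay far above the adult libraries and overlapped each other, with a log2 difference of 5.45 ± 0.47 (edgeR adjusted p 1.3e-07) against adult marrow. Id3 could not be placed without labelled knockout library 3. Npm1, a nucleolar chaperone of ribosome assembly, measured 117, 139.9 and 139 CPM in the labelled knockout, 164, 167 and 179.9 CPM in fetal liver and 64.6, 56 and 70.8 CPM in adult marrow. It was within 2-fold of fetal liver although called lower (log2 difference -0.37 ± 0.11, edgeR adjusted p 0.012). Hspd1 and Hspe1, which together form the mitochondrial chaperonin, stood at 1961 ± 96.7 and 400.3 ± 49 CPM in the labelled knockout, 2248 ± 47.2 and 382 ± 30.0 CPM in fetal liver, and 974.9 ± 48.3 and 177 ± 17.6 CPM in adult marrow. Zcchc3, a zinc-knuckle nucleic-acid-binding protein, showed 72.4 ± 10.02, 97.2 ± 13.3 and 24.8 ± 2.47 CPM in that order, and Cenpv, a centromere-associated protein, 53.9 ± 2.43, 42.7 ± 7.15 and 15.9 ± 2.29 CPM. Zcchc3 was called lower than in fetal liver within that margin (log2 difference -0.43 ± 0.15, edgeR adjusted p 0.031). Pros1, which encodes the anticoagulant protein S, stood at 39.6 ± 9.83 CPM, within 2-fold of fetal liver (37.6 ± 3.09 CPM) and above adult marrow (14.4 ± 4.2 CPM). The fetal-level class had a median log2 difference of 1.33 from adult marrow and -0.04 from wild-type fetal liver.

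Among genes between the wild types, Fscn1, an actin-bundling protein, kept a small part of its fetal level. It measured 6.68, 11.6 and 9.49 CPM in the labelled knockout, 0.496, 0.468 and 0.274 CPM in adult marrow and 77.9, 67.5 and 84.5 CPM in wild-type fetal liver, with no overlap between any groups. The difference from both was called, with a log2 difference of 4.46 ± 0.51 (edgeR adjusted p 1.2e-06) against adult marrow and a log2 difference of -3.05 ± 0.34 (edgeR adjusted p 6.0e-06) against fetal liver. Grap, a GRB2-related adaptor, showed 6.8 ± 0.725, 0.856 ± 0.366 and 26.1 ± 0.93 CPM in the same order. Mzb1, an endoplasmic reticulum protein of the B lineage, showed 5.87 ± 1.01, 1.2 ± 0.797 and 30.3 ± 4.96 CPM.

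**Figure D3:**
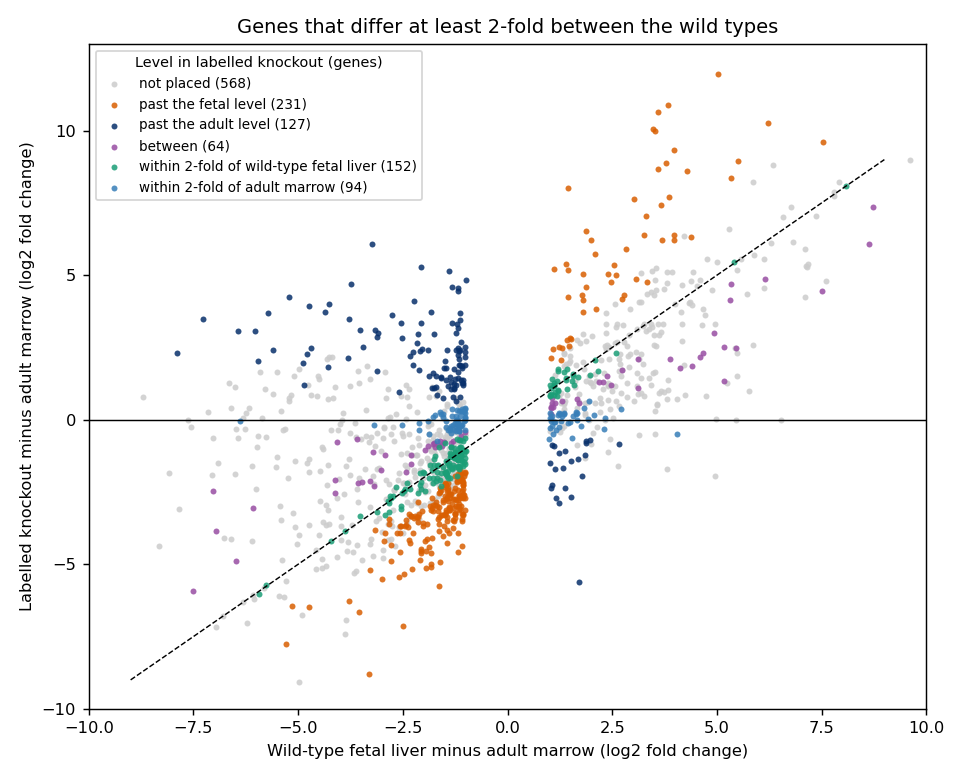
Log2 fold change against adult marrow of the 398 fetal-high and 838 adult-high genes, with wild-type fetal liver on the x axis and the labelled knockout on the y axis; points are genes coloured by class, the solid line is the adult level and the dashed line the wild-type fetal level. Both axes use the same adult libraries, so the position of a point is a description; fetal-high genes past the fetal level reach log2 differences above 5 on the y axis.

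Over all fetal-high genes, the largest placed class, 54 genes, lay past the fetal level. It had a median log2 difference of 5.57 from adult marrow and 2.81 from wild-type fetal liver. The median level of its genes in wild-type fetal liver was 6.09 CPM. Among the 127 fetal-high genes at 20 CPM or more there, it was the smallest placed class, with 15 genes. Slc2a1, the glucose transporter of red cells and many other tissues, measured 2193, 1996 and 2339 CPM in the labelled knockout, 32.6, 23.8 and 30.2 CPM in adult marrow and 112, 120.2 and 113 CPM in wild-type fetal liver, with a log2 difference of 6.23 ± 0.19 (edgeR adjusted p 1.5e-11) against adult marrow. Mt1, a metal-binding metallothionein, stood at 1067 ± 37.1 CPM against 11.6 ± 2.99 and 42.5 ± 5.76 CPM, and Asns, which makes asparagine, at 1017 ± 68.4 CPM against 31 ± 0.182 and 108 ± 3.71 CPM. Cited4, a transcriptional co-activator, showed 379.7, 450.0 and 401 CPM in the labelled knockout, 3.82, 3.51 and 1.92 CPM in adult marrow and 37.4, 29.3 and 25.3 CPM in fetal liver. Podxl, a sialomucin of blood progenitors and vessels, showed 182 ± 10.7, 2.17 ± 0.803 and 20.8 ± 2.66 CPM in that order. No labelled knockout library of these genes overlapped either wild type. Erythroid genes rose in the same libraries: of 27 tested, 25 were higher and 0 lower in the labelled knockout than in adult marrow, and 25 and 0 against wild-type fetal liver. The shares of all genes were 23.6% and 24.2% against adult marrow, and 20.8% and 23% against wild-type fetal liver. The part of erythroid genes in the class was not tested.

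Imprinted and fetal growth genes moved in both directions. Of 14 tested, 10 were higher and 2 lower in the labelled knockout than in adult marrow, with a median log2 difference of 2.28, beside 23.6% of all genes called higher and 24.2% lower. Their summed level was nevertheless lower, at 180.9 to 226.3 CPM against 228.9 to 318.3 CPM in adult marrow. The lower members were Slc22a3, an organic cation transporter, at 27.8 ± 4.02 CPM against 203 ± 49.8 CPM, and Impact, at 30.0 ± 3.46 CPM against 48 ± 2.85 CPM. Of the 5 fetal-high members, Igf2r, Peg3 and Plagl1 lay past the fetal level, Ndn lay between and Grb10 could not be placed, while Meg3 and Igf2 were outside the fetal-high set. Ndn, a paternally expressed growth regulator, measured 4.99 ± 2.36 CPM against 1.38 ± 0.247 CPM in adult marrow and 29.1 ± 4.06 CPM in fetal liver, and its call against adult marrow was lost without labelled knockout library 6 (edgeR adjusted p 0.055). Igf2r, which clears IGF2, measured 60.6, 72.3 and 62.4 CPM in the labelled knockout, 4.22, 2.75 and 3.83 CPM in adult marrow and 21.4, 23.9 and 26.9 CPM in wild-type fetal liver (log2 difference 4.17 ± 0.30, edgeR adjusted p 4.7e-08 against adult marrow). Peg3, a paternally expressed zinc finger gene, measured 30.3, 36 and 32.9 CPM in the labelled knockout and 8.08, 5.28 and 10.3 CPM in fetal liver, with 2 counts over the adult libraries, a ratio to adult marrow of 914.2 with a 95% counting interval of 252.7 to 7555. The fitted log2 difference of 9.61 became 12.39 without adult library 2. Plagl1, another zinc finger gene, measured 9.997, 19.8 and 17.5 CPM against 0.409, 0.485 and 0.229 CPM in fetal liver and a single adult count, a ratio of 868 (155.4 to 34320). The fitted log2 difference of 9.34 became 11.32 without adult library 2. Meg3, a maternally expressed noncoding RNA, had no adult counts and was at least 177-fold higher in the labelled knockout, taking 3 counts as the upper limit for the adult group. Igf2 was at least 40.1-fold higher, at 1.53, 2.4 and 2.59 CPM. Igf2r, Peg3, Plagl1, Meg3 and Igf2 were each higher in all 3 labelled knockout libraries than in any wild-type library of adult marrow or fetal liver.

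Among the 838 adult-high genes, 57 stood at the adult level in the labelled knockout, 119 stayed at the low fetal level and 32 lay between. A further 105 lay above the adult level, 177 lay below the fetal level and 348 could not be placed. By calls alone, 497 were lower in the labelled knockout than in adult marrow, 106 were higher, and 235 were not called, of which 169 were higher than in wild-type fetal liver. Among the 311 adult-high genes at 20 CPM or more in adult marrow, 33 stood at the adult level, 83 at the fetal level and 102 below it.

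Late neutrophil genes, a late program of the granulocyte branch, were called in both directions between the labelled knockout and adult marrow. Of 19 tested late neutrophil genes, 6 were higher and 3 lower than in adult marrow, with a median log2 difference of 0.49, beside 23.6% of all genes called higher and 24.2% lower. In wild-type fetal liver 0 were higher and 14 lower than in adult marrow, beside 13.9% and 13.2% of all genes. The list summed to 2168 to 4650 CPM in the labelled knockout, 752.2 to 1493 CPM in adult marrow and 149.5 to 175 CPM in fetal liver, with S100a9 and Itgam at 0 counts in every library. Of the 14 in the adult-high set, 5 were placed above the adult level, 2 between and 7 could not be placed. Of the 5, Camp could not be placed without labelled knockout library 3 or adult library 2 or 5, nor Lcn2 without labelled knockout library 3. S100a8, a subunit of calprotectin, measured 1102, 550.4 and 532 CPM in the labelled knockout, 112, 67.2 and 207 CPM in adult marrow and 9.3, 2.69 and 2.46 CPM in wild-type fetal liver. Every labelled knockout library lay above every adult one, with a log2 difference of 2.498 ± 0.57 (edgeR adjusted p 0.0027), or 3.09 without adult library 6, the highest of its group. Ltf, which encodes the iron-binding granule protein lactoferrin, showed 832, 348 and 457 CPM against 121, 89.7 and 212 CPM in adult marrow and 10.3, 1.88 and 1.66 CPM in fetal liver (log2 difference 1.95 ± 0.54, edgeR adjusted p 0.0091). Labelled knockout library 3 was the highest of its group in both genes. Pglyrp1, an antibacterial granule protein, rose from 14.9 ± 2.49 to 75.3 ± 33.7 CPM (log2 difference 2.34 ± 0.43, edgeR adjusted p 4.9e-04). Padi4, a histone-modifying enzyme of neutrophils, lay between, at 8.08 ± 2.07 CPM against 37.3 ± 5.94 CPM in adult marrow and 3.16 ± 0.299 CPM in fetal liver. Chil3 of the same list lay between as well, with log2 differences from adult marrow of -2.75 to -1.56 over 15 alternative fits. Primary granule genes, made at the promyelocyte stage, had 3 higher and 4 lower of 15, beside 23.6% and 24.2% of all genes. Their median log2 difference was 0.21. Mpo, the myeloperoxidase gene, measured 5571, 3167 and 3399.5 CPM in the labelled knockout, 9493, 11443 and 9687 CPM in adult marrow and 4806, 6296 and 5221 CPM in fetal liver, lower than in every adult library (log2 difference -1.34 ± 0.18, edgeR adjusted p 1.6e-05). Nkg7, a granule membrane protein, stayed at the fetal level, with 52.4 ± 16.6 CPM against 368 ± 1.74 CPM in adult marrow and 51.2 ± 6.7 CPM in fetal liver. Gstm1, a glutathione transferase of the same list, stood at the adult level, with 105 ± 36.8, 90.9 ± 6.64 and 31.1 ± 1.12 CPM in the order labelled knockout, adult marrow, fetal liver. Its uncalled log2 difference from adult marrow of 0.21 became -0.11 without labelled knockout library 3.

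Platelet genes moved in both directions. Of 20 tested megakaryocyte and platelet genes, 11 were higher and 6 lower than in adult marrow, beside 23.6% and 24.2% of all genes. Their median log2 difference was 1.49. The list summed to 1416 to 2313 CPM in the labelled knockout, 1408 to 1634 CPM in adult marrow and 797.1 to 831.9 CPM in wild-type fetal liver. Of the 9 list members in the adult-high set, 5 lay above the adult level. The others stood 1 each at the adult level, between, at the fetal level and below the fetal level. Gata2, given below, was the member below the fetal level. Pf4, a platelet chemokine, measured 192, 259 and 360.2 CPM in the labelled knockout, 75.8, 28.2 and 38.8 CPM in adult marrow and 4.68, 2.96 and 5.33 CPM in wild-type fetal liver, with a log2 difference of 2.504 ± 0.31 (edgeR adjusted p 1.2e-05). The labelled knockout libraries overlapped neither wild type, and library 8 was the highest. Ppbp, another platelet chemokine, showed 147, 192 and 279.7 CPM against 1.89, 0.351 and 0.548 CPM in adult marrow (log2 difference 7.74 ± 0.48, edgeR adjusted p 5.9e-09, 8.88 without adult library 2). Gp5, a subunit of the platelet adhesion receptor, stood at the adult level at 75.1 ± 18 CPM against 62.1 ± 17.7 and 20.3 ± 0.283 CPM, and could not be placed without adult library 2.

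Antigen presentation and interferon genes were mostly lower in the labelled knockout than in adult marrow. Of 19 tested MHC class I presentation genes, 1 was higher and 15 lower than in adult marrow (median log2 difference -2.25). The shares over all genes were 23.6% and 24.2%. Of the 10 list members in the adult-high set, 3 stayed at the fetal level, 1 lay between and 6 lay below the fetal level. H2-D1, a class I heavy chain, measured 121, 104 and 127 CPM in the labelled knockout, 117, 119.5 and 131 CPM in wild-type fetal liver and 871, 883 and 857 CPM in adult marrow. The fetal groups overlapped and were far below the adult one (log2 difference -2.89 ± 0.08, edgeR adjusted p 1.2e-12 against adult marrow, 95% interval against fetal liver -0.23 to 0.10). H2-K1, its close paralog, measured 102, 103 and 108 CPM against 203, 216 and 216 CPM in fetal liver and 1745, 1338 and 1704 CPM in adult marrow, below both. Reads of these near-identical genes can be set aside or split, so their levels are uncertain. B2m, the class I light chain, showed 167 ± 18.4, 364 ± 16.8 and 1319 ± 192 CPM in the order labelled knockout, fetal liver, adult marrow, Tap2, a peptide transporter subunit, 58.1 ± 5.14, 140.2 ± 6.81 and 391 ± 19 CPM, and Psmb8, an immunoproteasome subunit, 55.5 ± 13.8, 282 ± 20.8 and 602 ± 18.3 CPM. Nlrc5, the transactivator of class I genes, measured 1.0, 0.821 and 0.304 CPM in the labelled knockout, 0.908, 0.754 and 0.573 CPM in fetal liver and 46.5, 46.3 and 46.7 CPM in adult marrow (log2 difference -6.04 ± 0.29, edgeR adjusted p 1.2e-10). It could not be placed without labelled knockout library 3 or 6 or wild-type fetal library 5.

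Of 39 tested interferon response genes, 29 were lower and 1 higher than in adult marrow (median -1.55), and wild-type fetal liver had 31 lower and 0 higher. The shares of all genes were 24.2% lower and 23.6% higher, and 13.2% and 13.9% in wild-type fetal liver. Of the 23 list members in the adult-high set, 5 stayed at the fetal level and 6 lay below it. A further 11 could not be placed, and Isg20 was above the adult level. Lgals3bp, a secreted interferon-induced glycoprotein, measured 13.6, 12.8 and 16.7 CPM in the labelled knockout, 201, 181 and 188 CPM in adult marrow and 39.4, 39.5 and 30.4 CPM in wild-type fetal liver (log2 difference -3.72 ± 0.14, edgeR adjusted p 2.7e-11). Sp100, a nuclear body protein, stayed at the fetal level at 16.1 ± 8.61 CPM against 163 ± 16.8 CPM in adult marrow and 14.1 ± 2.8 CPM in fetal liver, and could not be placed without wild-type fetal library 4. Aff3, a transcriptional regulator, and H2-Ob, a class II chaperone chain, fell below both wild types, from 274 ± 11.1 to 3.54 ± 1.36 CPM and from 74.4 ± 3.29 to 1.61 ± 0.494 CPM, with fetal liver at 19.9 ± 4.15 and 9.28 ± 1.15 CPM. Cpne2, a calcium-dependent membrane-binding protein, stayed at the fetal level, with 4.21, 2.76 and 2.49 CPM in the labelled knockout, 2.86, 2.05 and 4.3 CPM in fetal liver and 168, 170.1 and 158 CPM in adult marrow. Among myeloid genes at the adult level, Grn, the progranulin precursor, measured 106 ± 14.5 CPM against 127 ± 8.05 CPM in adult marrow and 46.3 ± 4.37 CPM in fetal liver. Tifa, an adaptor of TRAF signalling, showed 61.7 ± 8.61, 76.1 ± 10.2 and 29.3 ± 3.48 CPM in that order.

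By fitted log2 difference, which depends on the prior count where adult counts were at or near 0, the 12 largest rises over adult marrow included the globins Hbb-bh1 and Hbb-y, the liver genes Ambp, Serpina6, Serpina1b, Rgn and Apoa1, and the macrophage receptor Marco. Hbb-bh1, a fetal-high embryonic globin past the fetal level, had 2 adult counts and a ratio of 1901 to adult marrow (525.9 to 15700.0). It left the fetal-high set without any 1 of the adult libraries or wild-type fetal library 4. Hbb-y, an embryonic globin, measured 1453, 2293 and 4841 CPM in labelled knockout libraries 3, 6 and 8, 0.546, 0.703 and 4.38 CPM in adult marrow and 2.0, 6.14 and 0.516 CPM in wild-type fetal liver, with a log2 difference of 10.58 ± 0.95 (edgeR adjusted p 3.6e-07) against adult marrow, or 9.97 without labelled knockout library 8 and 12.23 without adult library 6. Of 5 tested globins, 5 were higher (median 10.08), beside 23.6% of all genes. Fech, the last enzyme of heme synthesis, rose from 118 ± 16.4 CPM in adult marrow to 5428 ± 424 CPM. Urod, an earlier enzyme, rose from 76.1 ± 1.68 to 1147 ± 56.7 CPM. Of 27 tested heme and iron genes 23 were higher and 0 lower, beside 23.6% and 24.2% of all genes. Klf1 and Gata1, transcription factors of red cell development, stood at 1119.8 ± 47.9 and 483 ± 16.5 CPM against 71.1 ± 16 and 124 ± 9.53 CPM in adult marrow. Tfrc, the transferrin receptor, measured 1912 ± 177 CPM against 75.9 ± 4.57 CPM. Of the adult-type globins of the list, Hba-a1, Hbb-b1, Hbb-b2 and Hbb-bt had 0 counts in every library. Hba-a2 and Hbb-bs had counts in the series but were not among the tested genes. Near-identical copies can lose their reads.

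Liver genes rose as well. Of 24 tested hepatocyte genes, 20 were higher and 3 lower than in adult marrow, beside 23.6% and 24.2% of all genes. Their median log2 difference was 7.73, or 6.75 with genes at 0 adult counts taken at their bound. Alb, serum albumin, measured 110.5, 219 and 435 CPM in labelled knockout libraries 3, 6 and 8 and 0.347, 0.117 and 0.822 CPM in adult marrow, with a log2 difference of 9.18 ± 0.74 (edgeR adjusted p 1.3e-08), or 10.08 without adult library 6 and 8.56 without labelled knockout library 8. Afp, alpha-fetoprotein, measured 130.2, 262 and 465 CPM against 5.26, 5.21 and 4.93 CPM, with library 3 lowest and library 8 highest in both genes. Apoa1, an apolipoprotein, had 3 adult counts and a ratio of 1421 (486.1 to 6895). The list summed to 566.9 to 1819 CPM in the labelled knockout, 408.7 to 449.7 CPM in adult marrow and 160.1 to 165.2 CPM in wild-type fetal liver. Trf, Hnf4a and Krt18 were the 3 lower members, and Trf, transferrin, made up most of the adult sum at 324, 372 and 315 CPM. Apoc1, Serpina1a and Ahsg had 0 counts throughout. Hsd3b6, a steroid dehydrogenase, and Mrap, an accessory protein of the melanocortin receptor, had no adult counts and were at least 884.9-fold and 466.6-fold higher.

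Of 21 tested island macrophage genes, 17 were higher and 0 lower than in adult marrow (median 3.41), beside 23.6% and 24.2% of all genes. These genes mark the macrophages that nurse red cell precursors. They summed to 1206 to 1378 CPM against 211.1 to 252 CPM in adult marrow and 169.3 to 194.7 CPM in wild-type fetal liver, with Axl at 0 counts throughout. Hmox1, which degrades heme, measured 145, 168 and 187 CPM in the labelled knockout, 24.5, 24.7 and 14.5 CPM in adult marrow and 3.0, 5.6 and 6.08 CPM in fetal liver. Slc40a1, the iron exporter ferroportin, showed 409, 398 and 476 CPM in the labelled knockout, 38.2, 45.6 and 43 CPM in adult marrow and 14, 8.24 and 7.97 CPM in fetal liver. Both genes were above the adult level in all 3 labelled knockout libraries. Stroma and endothelium genes had 12 higher and 2 lower of 16, with Vim and Tie1 lower, beside 23.6% and 24.2% of all genes. The list summed to 433.4 to 496 CPM in the labelled knockout and 652.1 to 851 CPM in adult marrow, where Vim made up most of it, and Sparc, Pdgfrb, Pecam1 and Tek had 0 counts in every library.

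**Figure D4:**
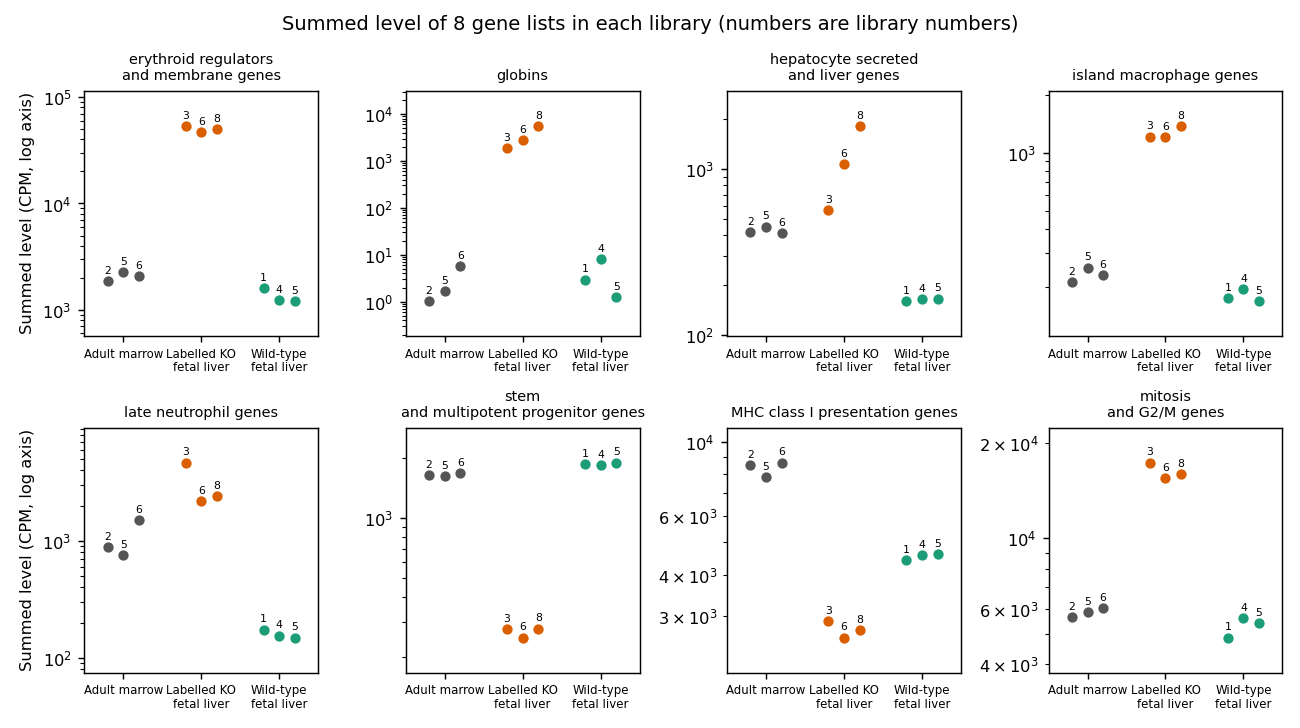
Summed level in CPM (log axis) of 8 gene lists in each library of adult marrow, labelled knockout and wild-type fetal liver; points are libraries with their library numbers. Labelled knockout libraries were the highest in erythroid, globin, liver, macrophage and mitosis genes and the lowest in stem and progenitor and MHC class I genes.

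Cell division genes were higher in the labelled knockout. Of 29 tested mitosis and G2/M genes, 27 were higher and 0 lower than in adult marrow (median log2 difference 1.32), and 27 and 0 against wild-type fetal liver. The shares of all genes were 23.6% and 24.2% against adult marrow, and 20.8% and 23% against wild-type fetal liver. Mki67, the proliferation antigen, measured 5266, 4598 and 4826 CPM in the labelled knockout, 1009.5, 1008 and 1002 CPM in adult marrow and 690.3, 679.7 and 676 CPM in fetal liver (log2 difference 2.28 ± 0.09, edgeR adjusted p 3.2e-11 against adult marrow). G1/S and DNA replication genes had 25 higher and 3 lower of 35 (median 0.59). Ccne1, the cyclin E1 gene, was in the fetal-high set and lay past the fetal level at 318, 327 and 336 CPM against 21.8, 25.4 and 26.2 CPM in adult marrow and 85.5, 86.1 and 82.5 CPM in fetal liver. The cyclin D, CDK and inhibitor list had 5 higher and 2 lower of 12 (median 0.42), beside the same 23.6% and 24.2%. Cdkn1b, the p27 inhibitor, rose from 12.5 ± 1.88 to 46.5 ± 2.16 CPM and Rb1, the retinoblastoma gene, from 64.7 ± 2.04 to 338 ± 18.2 CPM. Erythroid genes rose in the same libraries, and their part in these values was not tested.

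Progenitor genes were lower, although Kit, Ly6a and Runx1 of that list had 0 counts in every library. Gata2, a transcription factor of stem, progenitor and mast cells, measured 37.6, 39.8 and 47.4 CPM in the labelled knockout, 479, 478 and 457 CPM in adult marrow and 208, 229 and 227 CPM in wild-type fetal liver, with a log2 difference of -3.50 ± 0.15 (edgeR adjusted p 1.9e-10). Hlf, a factor of stem cells, stood at 9.39 ± 1.6, 95.3 ± 10.3 and 71.1 ± 2.64 CPM in that order, and Cd48, a surface protein of progenitors, at 42.7 ± 4.55, 299 ± 37.2 and 268 ± 31.5 CPM. The labelled knockout lay below every wild-type library for all 3. Of 19 tested mast cell and basophil genes, 6 were higher and 7 lower than in adult marrow (median -0.35), beside 23.6% and 24.2% of all genes. Against wild-type fetal liver 9 of these 19 were higher and 6 lower (median 2.47), beside 20.8% and 23% of all genes. Cpa3, a mast cell protease and one of the members lower than in adult marrow, fell from 279 ± 54.9 CPM there to 23.4 ± 3.77 CPM. Cma1, another mast cell protease, went the other way, with 152 counts over the labelled knockout libraries and 0 adult counts. Of 20 polycomb and chromatin genes, 2 were higher and 8 lower (median -0.18), beside the same 23.6% and 24.2%. Bmi1, a subunit of the repressive complex PRC1, measured 42.8, 46.2 and 52.8 CPM against 117, 124 and 119 CPM in adult marrow and 115, 118 and 118 CPM in fetal liver (log2 difference -1.34 ± 0.11, edgeR adjusted p 8.9e-08).

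**Figure D5:**
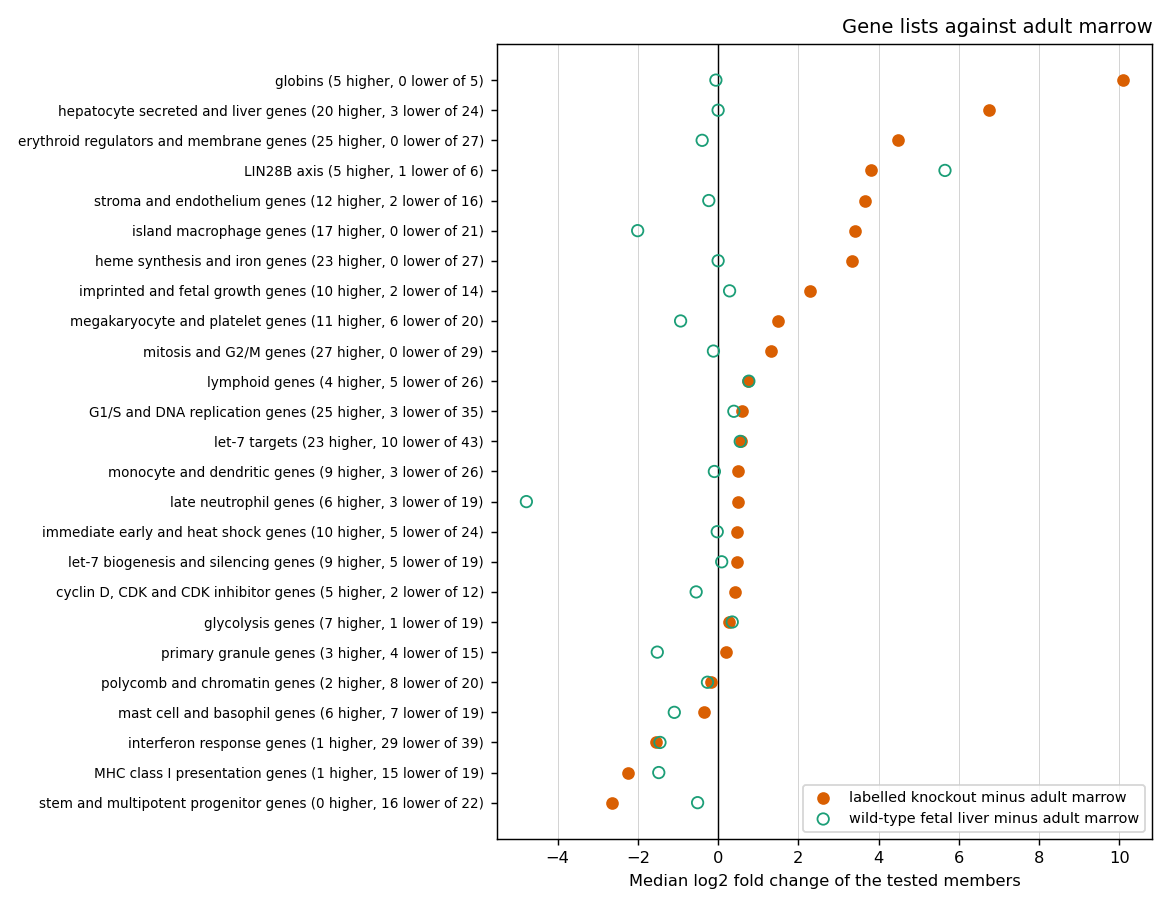
Median log2 fold change against adult marrow of the tested members of each gene list, with genes at 0 counts in a group at their bound, for the labelled knockout (filled points) and wild-type fetal liver (open points); labels give members called higher and lower in the labelled knockout. Both series use the same adult libraries; globins have the highest median of the labelled knockout and stem and multipotent progenitor genes the lowest.

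Among the remaining lists, immediate early and heat shock genes had 10 higher and 5 lower of 24 than in adult marrow (median 0.48), glycolysis genes 7 and 1 of 19 (0.26), monocyte and dendritic genes 9 and 3 of 26 (0.50) and lymphoid genes 4 and 5 of 26 (0.75), beside 23.6% of all genes higher and 24.2% lower. The lymphoid list summed to 89.16 to 117.1 CPM in the labelled knockout and 148.7 to 152.2 CPM in adult marrow, lower although its median was above 0.

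Genes of the let-7 pathway itself were called in both directions, the lower ones at about the share of all genes. Of 19 tested biogenesis and silencing genes, 9 were higher and 5 lower than in adult marrow (median 0.46), beside 23.6% and 24.2% of all genes. Ago2, the slicing argonaute, measured 226, 224 and 202 CPM in the labelled knockout, 44.3, 50.1 and 42 CPM in adult marrow and 52.2, 50.9 and 49.4 CPM in wild-type fetal liver (log2 difference 2.26 ± 0.13, edgeR adjusted p 1.7e-09), above every wild-type library. Tut7, a uridylyl transferase that modifies let-7 precursors, stood at 305 ± 19.5, 144 ± 1.26 and 101 ± 6.57 CPM in the same order (log2 difference 1.08 ± 0.10, edgeR adjusted p 2.4e-07). Dicer1, which cuts the precursors, was not called against adult marrow by the edgeR fit used here but was called by DESeq2, with RLE factors and with only the 9 libraries (adjusted p 0.027, 0.04 and 0.0051), with a 95% interval of -0.01 to 0.42 on the log2 scale. The precursors of let-7b and of 1 let-7c copy had 0 counts in every library, and mature let-7 was not measured.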

How the data were processed

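RNA-seq counts were deposited by the authors, 1 file per library, as read counts per RefSeq transcript accession. Per the labels' protocols, total RNA was extracted with Trizol and libraries were made with the SMARTer ultra low RNA kit and the Low Input Library Prep Kit. Per the submitters' processing notes, the tools were HTSeq, TopHat2 and cutadapt, and the build was mm10. The strand setting, tool versions and options were not given in the sources used here, so reads of overlapping antisense genes cannot be told apart. Reads that fit several transcripts were set aside as ambiguous (24.3% to 29.8% of unique alignments in the 6 libraries), which lowers genes with several transcripts: 1328 of 5108 such genes had 0 counts in total.

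Summary rows were dropped and transcripts summed by gene. Of 33818 accessions, 33435 were named from the RefSeq table, 191 from GENCODE vM21 and 192 stayed unnamed, giving 24416 genes. All 17 libraries were fitted in 1 model with 7 group means (edgeR 4.0.16 in R 4.3.3, TMM, filterByExpr, quasi-likelihood test, Benjamini-Hochberg adjustment over 13558 genes, 10 residual degrees of freedom), so that the groups share 1 estimate of the spread. The script was tested on simulated data. Counts of the libraries of a group differed by more than sampling noise, so none was counted as a copy of another. A fold against 0 counts is a bound that takes 3 counts as the group's upper limit, and intervals on ratios cover counting error only.

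The genes, classes and lists were chosen with earlier results of these data known. Genes named by rule were the 12 largest rises and falls, the 10 genes with the largest wild-type difference in each class at 20 CPM or more in the higher wild type, and at most 4 called genes per list. Arid3b, B2m, Cd34, Cma1, Dicer1, E2f5, Eid2, Ets2, Gata1, Grb10, Hba-a2, Hbb-bs, Hnf4a, Igf2, Impact, Isg20, Jun, Kit, Klf1, Krt18, Slc22a3, Tie1, Trf, Vim and genes named for having 0 counts fall outside that rule and were chosen after their values were seen. Alternatives were RLE factors, DESeq2 1.42.0, no filter, only the 9 libraries, genes with 1 transcript, TMM without genes of other cell types, other limits for the sets and classes, and leaving out each library.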

Additional observations from a re-analysis of the deposited data

How the results depend on the processing

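Of 159 genes followed through 15 alternative fits, 136 kept their direction and side of the threshold in every fit, 8 lost the threshold in some, 11 reached it in some and 4 changed direction, all 4 not called against adult marrow. Slc35d3 (-0.01 on the log2 scale) turned to 0.05 with RLE factors, DESeq2 or no filter, 0.07 with only the 9 libraries and 0.01 with genes of 1 transcript, and Jun (-0.07) to 0.02 with only the 9 libraries. Leaving out 1 library, Slc35d3 ran from -0.30 to 0.31, Jun from -0.37 to 0.15, Serpine2 from -0.39 to 0.20 and Gstm1 from -0.11 to 0.39. Leaving out 1 library at a time (9 fits) gave 2842 to 3167 genes higher and 2762 to 3215 lower in the labelled knockout than in adult marrow, and 1610 to 1782 and 1671 to 1882 at 2-fold or more. For wild-type fetal liver against adult marrow it gave 1484 to 1839 higher and 1308 to 1780 lower, with 309 to 385 and 662 to 837 at 2-fold or more. For the labelled knockout against wild-type fetal liver it gave 2387 to 2989 and 2676 to 2849, with 1584 to 1879 and 1251 to 1301 at 2-fold or more. Fetal-high genes then numbered 23 to 39 at the adult level, 26 to 43 at the fetal level, 21 to 33 between, 13 to 21 past the adult level, 38 to 53 past the fetal level and 160 to 235 not placed. Adult-high genes numbered 44 to 69, 87 to 115, 24 to 34, 79 to 110, 144 to 178 and 271 to 397 in the same order. Membership moved more than these sizes. Of the 37 fetal-high genes at the adult level, 19, 20 and 21 kept that class without adult library 2, 5 or 6. Leaving out 1 labelled knockout library kept 23 to 25 of them, and 1 wild-type fetal library 23 to 32. Of the 33 at the fetal level, 24 to 28 kept their class over the 9 fits. The smallest fetal-high classes came without adult library 2 (adult level 23, past it 14), wild-type fetal library 1 (between 21) and wild-type fetal library 5 (past the adult level 13). With only the 9 libraries, fetal-high genes at the adult level were 52, at the fetal level 58, between 63 and past the fetal level 120. With a 1.5-fold margin, 10 fetal-high genes stood at the adult and 13 at the fetal level, and 12 and 27 adult-high genes. With sets cut at 4-fold, 239 genes were fetal-high (5 at the adult level, 5 at the fetal level, 1 past the adult and 33 past the fetal level) and 367 adult-high (5, 28, 41 and 48 in the same order, 19 between and 226 not placed). The cause of these changes was not tested, except that narrower margins and smaller sets hold fewer genes by construction. The fetal-high genes that could not be placed had a median of 4.68 CPM in wild-type fetal liver and those past the fetal level 6.09 CPM, and 24 of the 127 at 20 CPM or more could not be placed either; the part of depth was not tested. No paired analysis was possible because the labelled knockout and adult marrow share only library number 6, the wild types only number 5, and the labelled knockout and wild-type fetal liver none.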
